A study of Mus musculus with 18 samples.

Results

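Gene expression in the distal colon of mice was compared between 8am, 1 h after the lights came on, and 8pm, 1 h after they went off. The comparison rests on 6 of the 18 arrays in the series, the 3 labelled 8am and the 3 labelled 8pm, and covers every gene on the array. The series holds 3 Affymetrix mouse 430 2.0 arrays (replicates a, b and c) for each of 6 collection times spaced 4 h apart. All mice had been kept for 2 weeks under 12 h of light and 12 h of darkness, with lights on at 7 and off at 19 on the 24 h clock, and could eat at any time. The colon was cut about 0.5 cm above the anus and total RNA was used, so each array holds RNA of the whole wall. Strain, age and sex are not given in the sources used here, no genetic change or drug is named, and nothing in the labels ties the 3 arrays of a time to different animals, so p-values measure the spread between these arrays, which may be technical.

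The circadian clock of mammals is a transcriptional loop. CLOCK or NPAS2 pairs with BMAL1 (gene Arntl) at E-box sequences and activates the Per and Cry genes, whose proteins then repress the pair, while REV-ERB proteins (Nr1d1, Nr1d2) repress Arntl. The same E-boxes drive the PAR bZIP factors Dbp, Tef and Hlf, which carry the rhythm to genes with D-boxes. The colon lining is renewed from dividing cells in the crypts, and genes needed in mitosis are switched on late in the cell cycle through promoter elements called the cell cycle homology region (CHR) and the CCAAT box.

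Promoters of 5 genes past the threshold are shown first. They were chosen because they hold the motif: 4 are the genes higher at 8am with a CHR, of 9 with a promoter in the table, and 1 is the gene lower at 8am with an E-box, of 4 with a promoter. Each runs 5′ to 3′ on the gene's own strand from 250 bases before to 50 bases after the transcription start, as annotated by RefSeq on GRCm38.p6. The first 4 are of Bub1b (chr2:118597961-118598260, plus strand), Cdc20 (chr4:118437294-118437593, minus strand), Knl1 (chr2:119046869-119047168, plus strand) and Ckap2 (chr8:22185770-22186069, minus strand). In them capitals mark the CHR letters TTTGAA and the CCAAT box, which reads ATTGG where it lies on the other strand.
Bub1b: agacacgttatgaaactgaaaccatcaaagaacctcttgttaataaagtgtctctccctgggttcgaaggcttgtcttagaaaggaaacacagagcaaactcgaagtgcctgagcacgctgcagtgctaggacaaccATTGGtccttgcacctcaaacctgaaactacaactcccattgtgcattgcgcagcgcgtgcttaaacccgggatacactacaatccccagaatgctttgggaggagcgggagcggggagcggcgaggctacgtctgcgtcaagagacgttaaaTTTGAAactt
Cdc20: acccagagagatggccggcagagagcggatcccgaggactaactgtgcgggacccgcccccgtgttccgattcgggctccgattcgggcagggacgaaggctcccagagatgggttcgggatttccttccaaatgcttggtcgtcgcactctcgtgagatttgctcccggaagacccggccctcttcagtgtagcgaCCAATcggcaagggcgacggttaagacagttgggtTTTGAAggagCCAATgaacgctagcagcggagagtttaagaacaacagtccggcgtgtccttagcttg
Knl1: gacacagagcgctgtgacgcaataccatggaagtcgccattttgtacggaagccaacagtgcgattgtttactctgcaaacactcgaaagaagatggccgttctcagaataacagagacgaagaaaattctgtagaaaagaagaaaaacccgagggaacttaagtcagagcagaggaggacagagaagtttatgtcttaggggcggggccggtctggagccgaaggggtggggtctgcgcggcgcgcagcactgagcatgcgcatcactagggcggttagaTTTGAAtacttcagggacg
Ckap2: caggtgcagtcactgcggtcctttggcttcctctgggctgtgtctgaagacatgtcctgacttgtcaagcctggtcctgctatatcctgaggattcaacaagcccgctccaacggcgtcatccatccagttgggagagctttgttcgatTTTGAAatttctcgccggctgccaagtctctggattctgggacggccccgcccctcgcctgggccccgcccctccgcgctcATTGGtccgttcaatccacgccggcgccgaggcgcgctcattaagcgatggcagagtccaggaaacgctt
The fifth is of Tef (chr15:81802423-81802722, plus strand), and there capitals mark the E-box CACGTG. RefSeq lists 2 starts for Tef, both with an E-box, and 1 is shown.
Tef: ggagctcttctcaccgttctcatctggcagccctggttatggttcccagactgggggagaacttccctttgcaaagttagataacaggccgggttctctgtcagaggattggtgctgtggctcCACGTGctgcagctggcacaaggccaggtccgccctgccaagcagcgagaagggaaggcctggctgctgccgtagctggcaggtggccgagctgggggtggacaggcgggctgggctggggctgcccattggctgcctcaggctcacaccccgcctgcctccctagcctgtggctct
The share of promoters that hold each motif is given beside the genes it belongs to below.

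The tissue label was checked against marker genes. Car1, a carbonic anhydrase of colon surface cells, lay between 10270 and 17680 in signal over the 6 arrays, and the ion exchanger Slc26a3 (18170 to 24860), the keratin Krt20 (7366 to 9494) and the mucin Muc2 (15750 to 23500) were also high in all 6. Of the pancreas markers, the enzyme gene Cpa1 stayed between 6.78 and 14.5, while Cela1 was at 6116 to 11100. Cpa1 still passed the expression filter, because the mean used there took in arrays of other times. The mean log2 signal of the 12 tested pancreas genes was 7.37 to 7.80 in the 6 arrays of 8am and 8pm. It was higher in all 6 arrays of 12pm and 12am, which share the fit, and highest in 12am b (14.29), 12am a (12.42) and 12pm c (11.46), where digestive enzyme genes were abundant. Results that use those times are given with and without these 3 arrays. The Gapdh ratio of 3′ to 5′ probe signal, a sign of RNA quality, was 0.793 to 0.873 in the 6 arrays of 8am and 8pm. It exceeded 2 in 4 arrays of 4pm and 4am, up to 36.0, and those times were left out of the fit. Pairs of arrays correlated at 0.961 to 0.973 within 8am, at 0.966 to 0.978 within 8pm and at 0.96 to 0.971 between the times. These ranges overlap. Differences in level from gene to gene also raise such correlations, so they cannot show whether the arrays separate by time.

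Few genes passed the test between early light and early dark. All 5 that were lower at 8am belong to the core clock or clock output list, and 4 of the 11 that were higher belong to the mitosis list. The core clock, clock output and mitosis lists hold 16, 12 and 31 of the genes tested. They were chosen with earlier results of these data known, so membership is a description and not a test. limma was fitted to log2(signal + 16) over the 12 arrays of 8am, 12pm, 8pm and 12am, and a gene was called at a Benjamini-Hochberg adjusted p under 0.05. Of 12870 genes tested, 16 passed (0.124%), of which 11 were higher at 8am (0.0855%) and 5 were lower (0.0389%). The 5 lower genes were Dbp, Tef, Nr1d2, Usp2 and Per2. The higher genes were Bub1b, Psrc1, Mad2l1, Ncaph, Nuf2, Cdc20, Knl1, Ckap2, Cdca2 and Spon2, plus 1 locus listed under a DNA segment name. Before adjustment 891 genes (6.92%) had a p under 0.05, 408 higher (3.17%) and 483 lower (3.75%), and another 15 genes had an adjusted p between 0.05 and 0.051, so the count sits on a steep edge.

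The count depended on the fit. It was 24 with the 6 arrays of 8am and 8pm alone (14 of the 16 among them), 205 with array quality weights (16 of the 16 among them, split 118 higher to 87 lower) and 1, Dbp, with all 18 arrays. Quantile normalization left 2 calls, both lower, and centring each array on its median left 4, of which 1 was higher and 3 were lower, against the split of 11 to 5 above. Leaving out 8pm a or 8pm b left 1 call, Tef, leaving out 8am c left 3, and leaving out 8am b gave 37. Without 12pm c, 12am a and 12am b, the 3 arrays highest in pancreas genes, 28 genes passed, 19 higher and 9 lower, and 16 of the 16 were among them. Beside the fits that leave out single arrays, Dbp passed in 14 of 14 other settings and Tef in 13 of 14. With single arrays left out Dbp passed in 10 of 12 fits and Tef in 12 of 12. Bub1b passed in 7 of 13 other settings and in 7 of 12 fits without an array.

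**Figure D1:**
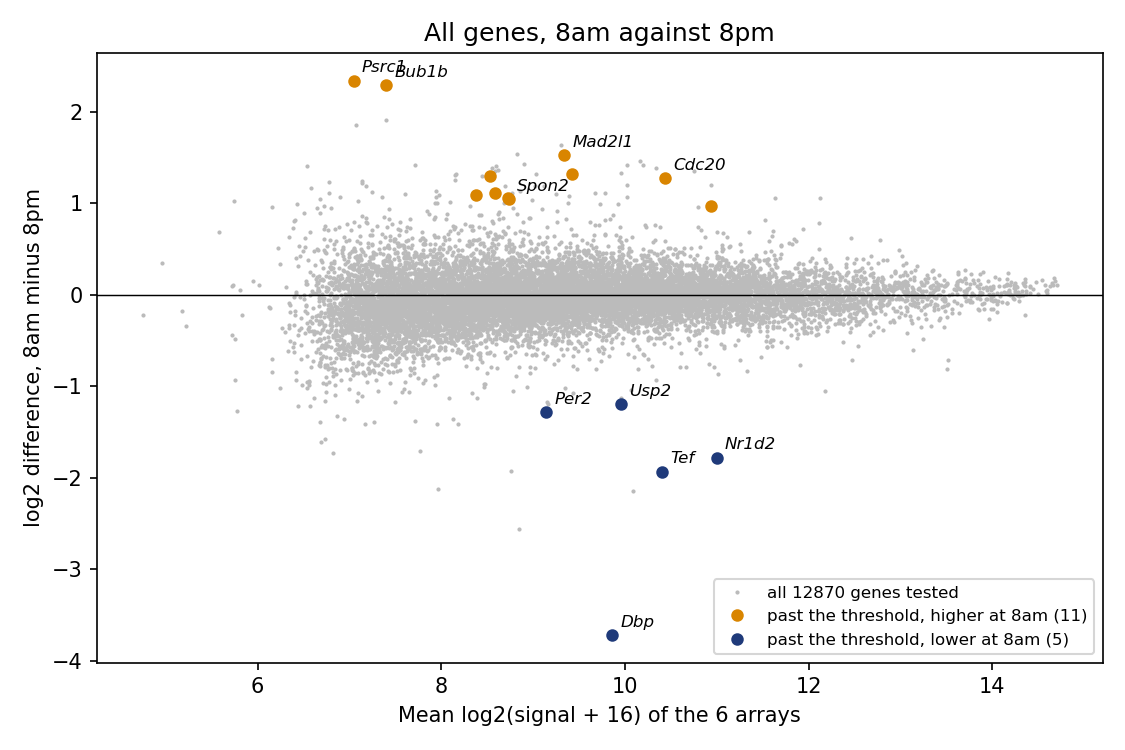
Each point is 1 of 12870 genes, with its mean log2(signal + 16) over the 6 arrays of 8am and 8pm on the horizontal axis and its log2 difference, 8am minus 8pm, on the vertical axis. Orange points are the 11 genes past the threshold that were higher at 8am and blue points the 5 that were lower; Dbp, at -3.72, lies farthest from 0.

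Among the PAR bZIP factors, Dbp, an activator of D-box genes, had signals of 149, 152 and 588 at 8am and of 4890, 4907 and 1568 at 8pm in arrays a, b and c. Every 8pm array was above every 8am array, but array c of each time lay nearest the other time. The log2 difference was -3.72 ± 0.48 (SE, n = 3 and 3; 13.2-fold, adjusted p = 0.008499), where folds are on the log2(signal + 16) scale and so understate changes at low signal. Tef, its close relative, was at 633, 602 and 811 at 8am and at 2748, 3239 and 2046 at 8pm. The groups stood well apart, with a log2 difference of -1.94 ± 0.20 (SE, 3.82-fold, adjusted p = 0.0009662), the smallest adjusted p of all genes. Hlf, the remaining member of the family, was at 302, 366 and 324 against 663, 772 and 608 and did not pass (log2 difference -1.01 ± 0.20, adjusted p = 0.05066).

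Of the repressors, Nr1d2, which encodes REV-ERB beta, was at 1063, 870 and 1386 at 8am and at 4551, 4681 and 2525 at 8pm. The ranges did not overlap and the log2 difference was -1.78 ± 0.26 (SE, 3.44-fold, adjusted p = 0.02319). Its paralog Nr1d1, which encodes REV-ERB alpha, differed by -0.20, with the opposite sign under array weights, and did not pass, with 438, 348 and 1120 at 8am around the 642, 642 and 635 of 8pm. Per2, a repressor of CLOCK and BMAL1, was at 388, 393 and 272 at 8am and at 715, 1112 and 813 at 8pm (log2 difference -1.28 ± 0.23, SE, 2.43-fold, adjusted p = 0.04206). Per1 (log2 difference -1.02 ± 0.36, adjusted p = 0.5512) and Per3 (-0.79 ± 0.18, adjusted p = 0.1094) had lower 8am means and did not pass. Per1 overlapped between the times, with 8am b at 678 and 8pm c at 676, and Per3 did not, its highest 8am signal being 380 and its lowest 8pm signal 513. Cry1, the partner of the PER proteins, differed by 0.01 ± 0.31 and changed sign without single arrays, and Cry2 differed by -0.33 ± 0.29.

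Ciart, a repressor that binds the BMAL1 pair, was at 157, 48 and 142 against 421, 386 and 330, with no overlap (log2 difference -1.71 ± 0.47, adjusted p = 0.2531). Cipc, an inhibitor of CLOCK, was at 1518, 1331 and 1558 against 2846, 2684 and 2003 (-0.75 ± 0.15, adjusted p = 0.06107). Neither passed the test.

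The activators leaned the other way without passing. Arntl was at 1365, 1843 and 1318 at 8am and at 797, 634 and 683 at 8pm, a log2 difference of 1.07 ± 0.22 (SE, adjusted p = 0.0603). Npas2 was at 792, 1035 and 678 against 326, 293 and 459 (1.18 ± 0.26, adjusted p = 0.1094). Clock was at 1187, 1307 and 1256 against 790, 902 and 927 (0.51 ± 0.17, adjusted p = 0.4737). All 3 had 8am arrays wholly above the 8pm arrays, which held for 5.63% of all genes. Over the core clock list, 16 of its 21 genes were tested; 2 were called lower (Nr1d2 and Per2; 0.0389% of all genes), 0 higher, and the median log2 difference was -0.16 against -0.03 for all genes. By unadjusted p under 0.05, 3 of the 16 were higher and 6 lower, against 3.17% and 3.75% of all genes. The 4 members not yet described lay near 0: Bhlhe40 at -0.06, the kinase genes Csnk1d at -0.02 and Csnk1e at -0.12, and Rora, which activates Arntl, at -0.02; the signs of all 4 turned in at least 1 other setting.

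Of the clock output list, 12 of 17 genes were tested and 3 were called, all lower (0.0389% of all genes): Dbp, Tef and Usp2. Usp2, a deubiquitinating enzyme, was at 697, 584 and 649 at 8am and at 1603, 1693 and 1215 at 8pm, a log2 difference of -1.19 ± 0.18 (SE, 2.29-fold, adjusted p = 0.02319). The list's median was -0.45, and 6 of the 12 had all 8am arrays below all 8pm arrays, against 8.46% of all genes. Tspan4, a tetraspanin, was at 115, 182 and 203 against 496, 540 and 361 (-1.41 ± 0.28, adjusted p = 0.0557). Wee1, a kinase that delays mitosis, differed by -0.29 ± 0.20, Nampt, which acts in NAD+ synthesis, by -0.17 and the cold-inducible RNA-binding protein gene Cirbp by -0.61 ± 0.37. Tsc22d3 and Coq10b were at -0.22 each, Lonrf3 at 0.33 and Dtx4 at 0.09, and none of these 7 passed.

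**Figure D2:**
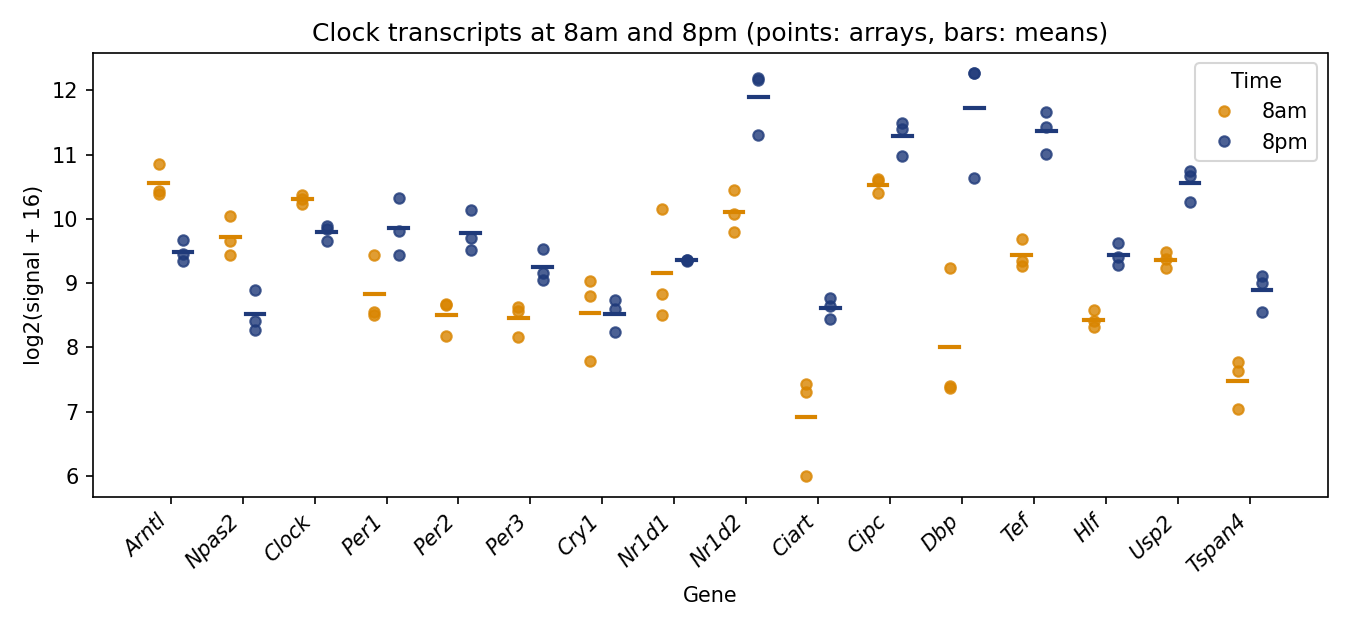
Points are the log2(signal + 16) values of single arrays for 16 clock and clock output genes, orange for 8am and blue for 8pm, and bars are the means of 3 arrays. Arntl, Npas2 and Clock lie higher at 8am, most of the others lie higher at 8pm, and Cry1 and Nr1d1 overlap.

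E-boxes (CACGTG, which reads the same on both strands) were present in the 300 bases shown for 4 of 13 core clock genes with a RefSeq promoter (30.8%: Ciart, Cipc, Cry1 and Per1) and 4 of 10 output genes (40%: Coq10b, Lonrf3, Tef and Tspan4), against 11.3% of the tested genes. A gene counts here if any of its annotated starts matches. Counted by promoter, the E-box shares were 19% of 21 for the core clock, 33.3% of 15 for outputs and 9.44% for tested genes. The E-box thus occurred in Tef, which was called, in Tspan4, which missed the threshold, and in Cry1, which differed by 0.01. The D-box TTATGTAA was found for Per3 and Coq10b in these lists and in 0.666% of tested genes. A match describes letters in this window and does not show a site in use.

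On the mitosis list 31 of 33 genes were tested, and 4 were called higher at 8am (Bub1b, Mad2l1, Nuf2 and Cdc20) and 0 lower. Over all genes the shares were 0.0855% and 0.0389%. The mean at 8am was higher for 31 of 31, where it was higher for 44.4% of all genes and lower for 55.6%, and the median log2 difference was 1.29 against -0.03. In 27 of them (87.1%) all 8am arrays lay above all 8pm arrays, against 5.63% of all genes, and 29 had an unadjusted p under 0.05 in that direction, against 3.17%. All 31 stayed higher at 8am when the signals were quantile normalized or median centred, with a pseudocount of 1 or 64, and when each of the 6 arrays was left out in turn, with medians of 1.11 to 1.43 without 1 array.

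The spindle checkpoint delays chromosome separation until all kinetochores are attached. Bub1b, which encodes the checkpoint kinase-like protein BUBR1, was at 398, 232 and 486 at 8am and at 46, 66 and 72 at 8pm. The lowest 8am array was more than 3 times the highest 8pm array, and the log2 difference was 2.29 ± 0.38 (SE, 4.88-fold, adjusted p = 0.04206). Mad2l1, which encodes the inhibitor MAD2, was at 1146, 794 and 1379 against 391, 260 and 478, a log2 difference of 1.52 ± 0.27 (SE, 2.87-fold, adjusted p = 0.04206). Cdc20, the activator of the anaphase-promoting complex that MAD2 holds back, was at 2225, 1672 and 2610 against 1047, 840 and 761 (1.27 ± 0.22, 2.41-fold, adjusted p = 0.04206). The checkpoint kinase Bub1 was at 341, 216 and 402 against 42, 77 and 105 and missed the threshold (1.91 ± 0.36, adjusted p = 0.05066).

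Kinetochore genes followed. Nuf2, a subunit of the NDC80 complex that grips microtubules, was at 650, 461 and 597 at 8am and at 246, 187 and 235 at 8pm (log2 difference 1.29 ± 0.22, SE, adjusted p = 0.04206). Knl1, the scaffold on which BUB proteins dock, was at 533, 541 and 566 against 234, 237 and 263 (1.11 ± 0.19, adjusted p = 0.04206), and its arrays within each time were close together. Both genes rose by a similar amount, 2.45-fold and 2.16-fold. The centromere motor gene Cenpe gave a smaller difference, 0.49 ± 0.20, and did not pass.

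Genes of the spindle and of chromosome structure outside the list were called too. Psrc1, a spindle protein that binds microtubules, was at 322, 227 and 304 at 8am and at 69, 45 and 24 at 8pm, the largest called rise (log2 difference 2.34 ± 0.41, SE, 5.05-fold, adjusted p = 0.04206). Ckap2, a spindle-associated protein, was at 517, 394 and 510 against 221, 225 and 194 (1.09 ± 0.19, adjusted p = 0.04206). Ncaph, a subunit of condensin I, which compacts chromosomes, was at 1045, 969 and 1195 against 387, 346 and 544 (1.32 ± 0.24, adjusted p = 0.04206). Cdca2, which brings protein phosphatase 1 to chromatin, was at 557, 565 and 670 against 245, 251 and 351 (1.05 ± 0.19, adjusted p = 0.04206). In all of them the 3 arrays of 8am lay above the 3 of 8pm.

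Further members of the list did not pass. Plk1, a mitotic kinase, was at 1002, 436 and 972 against 288, 236 and 229 (log2 difference 1.53 ± 0.37, adjusted p = 0.1575), and Ccnb2, cyclin B2, was at 1479, 635 and 1399 against 524, 380 and 201 (1.63 ± 0.35, adjusted p = 0.08308). Ube2c, the ubiquitin-conjugating partner of the anaphase-promoting complex, was at 3102, 894 and 2397 against 925, 704 and 469 (1.46 ± 0.36, adjusted p = 0.174). In these genes 8am b was the lowest of the 8am arrays, and in Ube2c it lay below 8pm a. Mki67, Birc5 and Ccna2 had differences of 1.35, 1.41 and 1.32 with adjusted p = 0.05066 each. Pttg1, which encodes securin, and Tpx2, a spindle assembly factor, were the smallest of the list at 0.15 ± 0.24 and 0.09 ± 0.25. The other 17 members lay between Aurkb, the Aurora B kinase, at 0.69 and Nusap1, a spindle protein, at 1.42, and did not pass.

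**Figure D3:**
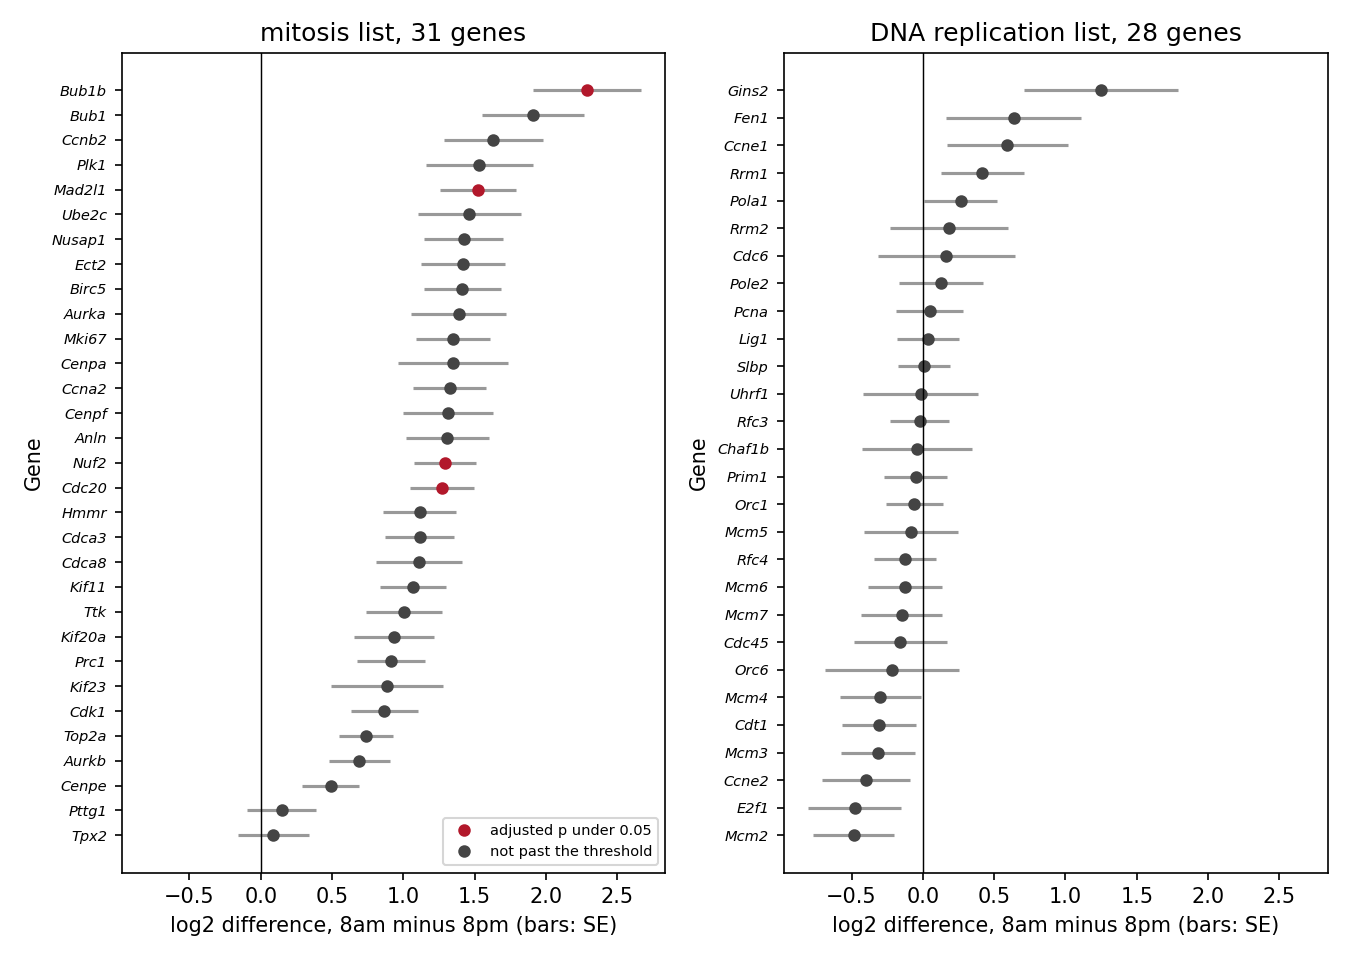
Points are log2 differences, 8am minus 8pm, with bars of 1 SE, for the 31 mitosis genes (left) and the 28 DNA replication genes (right), and red points passed the adjusted p of 0.05. All mitosis genes lie to the right of 0, from 0.09 to 2.29, and the replication genes lie on both sides of it.

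The CHR letters TTTGAA, searched on both strands, were present for 20 of the 27 mitosis genes that had a promoter (74.1%), against 14.6% of tested genes, 3 of 25 DNA replication genes (12.0%) and 0 of 13 core clock genes. In 19 of these 20 genes a match lay within 60 bases of an annotated start. Positions were not taken for other genes, and the window ends 50 bases after the start, so this share has no comparison. CCAAT boxes, on either strand, were present for 77.8% of the mitosis genes against 42.1% of tested genes. They were also present for 76.9% of core clock genes (10 of 13) and 64% of DNA replication genes. A gene counts here if any of its annotated starts matches, and core clock genes had more starts per gene. Counted by promoter, the shares were 79.3% of 29 for mitosis, 57.1% of 21 for the core clock and 60% of 30 for DNA replication. Over the promoters of tested genes the share was 36.8%, so CCAAT boxes were not particular to the mitosis list, where they were most frequent. Of the 9 genes called higher that had a promoter row, 4 held TTTGAA, the Bub1b, Cdc20, Knl1 and Ckap2 promoters printed above. The mitosis list is defined by function and was chosen with earlier results of these data known. The promoter shares describe that list rather than the response to time.

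DNA replication genes, which act in S phase before mitosis, gave no call. Of 31 listed, 28 were tested, 0 were called, 11 had higher and 17 lower means at 8am, and the median was -0.04. Over all genes 44.4% had higher and 55.6% lower means. Only 0.124% of all genes were called, so 0 calls are common for lists of this size, here and below. The helicase gene Mcm2 was at 1221, 2366 and 1351 against 2168, 1601 and 3119, and the clamp gene Pcna at 3046, 4273 and 3308 against 2894, 2536 and 5310. Both had their highest signal in 8pm c. Gins2, a subunit of the replicative helicase, showed the same array most sharply: 497, 508 and 294 at 8am and 81, 86 and 606 at 8pm (log2 difference 1.25, adjusted p = 0.6668). The list's mean log2 signal was 9.15, 9.56 and 9.29 at 8am and 9.04, 8.94 and 9.98 at 8pm. Without 8pm c the median became 0.24 with 23 of 28 higher at 8am, and with median centring it was 0.01 with 15 higher and 13 lower, so a direction for this list is not given.

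Stem cell and Wnt target genes of the crypt base, the zone from which dividing cells arise, were tested as 15 genes, with 0 called and a median of 0.15. Smoc2 was at 925, 864 and 893 against 486, 638 and 648 (log2 difference 0.60 ± 0.15, adjusted p = 0.1917). Lgr5, the stem cell receptor for R-spondins, was at 665, 787 and 570 against 370, 486 and 481 (0.58 ± 0.19, adjusted p = 0.4535). Notum, a secreted Wnt inhibitor, differed by -0.58. In whole tissue, fewer cells of a type and less RNA per cell cannot be told apart, for these genes and for every list here. The markers of surface colonocytes (17 genes) had a median of 0.05, those of goblet cells (14 genes) 0.12 and those of smooth muscle (17 genes) 0.13, with 0 called. Single arrays moved the last 2 lists: the smooth muscle median was 0.30, with 17 of 17 higher, when 8am a was left out and -0.025 when 8am c was, and the goblet cell median was 0.22 without 8am b and -0.0033 without 8am a.

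Beyond the clock and mitosis, 1 named gene was called. Spon2, a secreted matrix protein, was at 611, 552 and 628 at 8am and at 296, 292 and 256 at 8pm, with tight arrays in each time (log2 difference 1.04 ± 0.16, SE, 2.06-fold, adjusted p = 0.02319). Of the 16 called genes, 9 had other probe sets, 10 in all, and 10 of 10 differed in the called direction, 8 of them at an unadjusted p under 0.05. The exceptions were the other probe set of Spon2 itself, with a log2 difference of 0.47 ± 0.36 (SE), and that of Cdca2, with 0.32 ± 0.22 (SE).

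A row of genes stopped at an adjusted p just above 0.05. Atp12a, the colonic proton-potassium pump that takes up potassium, was at 9771, 7440 and 9217 at 8am and at 16698, 14304 and 15204 at 8pm (log2 difference -0.81 ± 0.15, adjusted p = 0.05041). Its signal was among the strong ones and the groups were far apart. Cyp2e1, a cytochrome P450, was at 75, 496 and 131 against 1334, 1628 and 620 (-2.56 ± 0.49), Pde9a, which breaks down cyclic GMP, at 1589, 1491 and 1465 against 3174, 2384 and 2798 (-0.86 ± 0.16), and Bnip3, a mitophagy receptor, at 1103, 1283 and 1278 against 2407, 2193 and 1819 (-0.79 ± 0.15). The kinase Tesk2 (-0.81) and the Mediator subunit Med18 (-1.93) were lower in mean too, and the ubiquitin ligase G2e3 was higher in mean (0.94), each at an adjusted p = 0.05066, as were Cyp2e1, Pde9a and Bnip3. None of these passed.

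Transport genes, which carry the colon's salt and water uptake, gave 0 calls. Of the sodium and potassium list 19 of 22 genes were tested, 16 had lower means at 8am, and the median was -0.30, while 4 of 19 had all 8am arrays below all 8pm arrays. Over all genes, 55.6% had lower means and 8.46% had all 8am arrays below. Sgk1, the kinase that raises sodium channel activity under corticosteroids, was at 4373, 2961 and 2534 against 8842, 8441 and 3933, a difference of -1.05 that did not pass. The potassium channel gene Kcnq1 was at 752, 893 and 905 against 1478, 1341 and 1295 (-0.68 ± 0.18, adjusted p = 0.2149). Fxyd4, a regulator of the sodium pump, went the other way in mean, at 8270, 8960 and 8672 against 4817, 5391 and 7212 (0.59 ± 0.15, adjusted p = 0.1917). The 16 genes of chloride, bicarbonate and water transport had a median of -0.02, and Best2, a bicarbonate channel of goblet cells, differed by -0.56 ± 0.13 (adjusted p = 0.1206).

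Of 13 tight junction genes 0 were called. Cldn8, a claudin that seals the distal colon against sodium leak, was at 5786, 8015 and 5683 against 2665, 2366 and 4619, with no overlap (log2 difference 1.06 ± 0.24, adjusted p = 0.12). Drug-handling genes gave 0 calls of 17 with a median of -0.13. Ephx1, an epoxide hydrolase, was at 743, 571 and 645 against 1195, 995 and 1064 (-0.72 ± 0.16, adjusted p = 0.1094), and Cyp3a13 at 1793, 2008 and 1974 against 2776, 3113 and 2592 (-0.55 ± 0.14, adjusted p = 0.1925). The drug-handling median was -0.28 without 8pm c. The cholesterol and fatty acid synthesis list had 14 of 19 lower means and a median of -0.26, which was -0.075 with 12 lower without 8am b and -0.16 without 8pm c. The glucocorticoid response list had 11 of 14 lower and a median of -0.10. In both lists 0 genes were called. Over all genes 55.6% had lower means and 0.124% were called.

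Lists of markers of other tissues and immune cells gave 0 calls, where 0.124% of all genes were called and 55.6% had lower means at 8am. The 8 tested adipose genes all had lower means at 8am (median -0.58, and -0.37 without 8am a), and their mean log2 signal was 7.76, 9.26 and 8.53 at 8am against 9.62, 9.75 and 8.98 at 8pm, so 8am b overlapped with 8pm. Adipoq, the adipocyte hormone, was at 11, 405 and 133 against 660, 696 and 284. Cyp2e1 had its 8am maximum and its 8pm minimum in the same arrays as Adipoq, and the part of adipose tissue in its difference was not tested. All 10 MHC class II genes had lower means (median -0.41), but 8 of 10 did with median centring and 7 of 10 without 8am a (median -0.27). Their list means overlapped, with 8am b at 9.92 and 8pm c at 9.49. Of the B and plasma cell genes 12 of 14 had lower means (median -0.47, from -0.73 without 8am b to -0.30 without 8am a). The T cell list (5 genes, 3 higher) had a median of 0.02 and the mast cell and granulocyte list (3 genes, 2 higher) of 0.30. Ighm, the IgM heavy chain, was at 726, 356 and 334 against 593, 773 and 966, which overlap. Ribosomal proteins (12 genes) had a median of -0.00, the proteasome (20 genes) of 0.06 and the respiratory chain (18 genes) of 0.07.

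**Figure D4:**
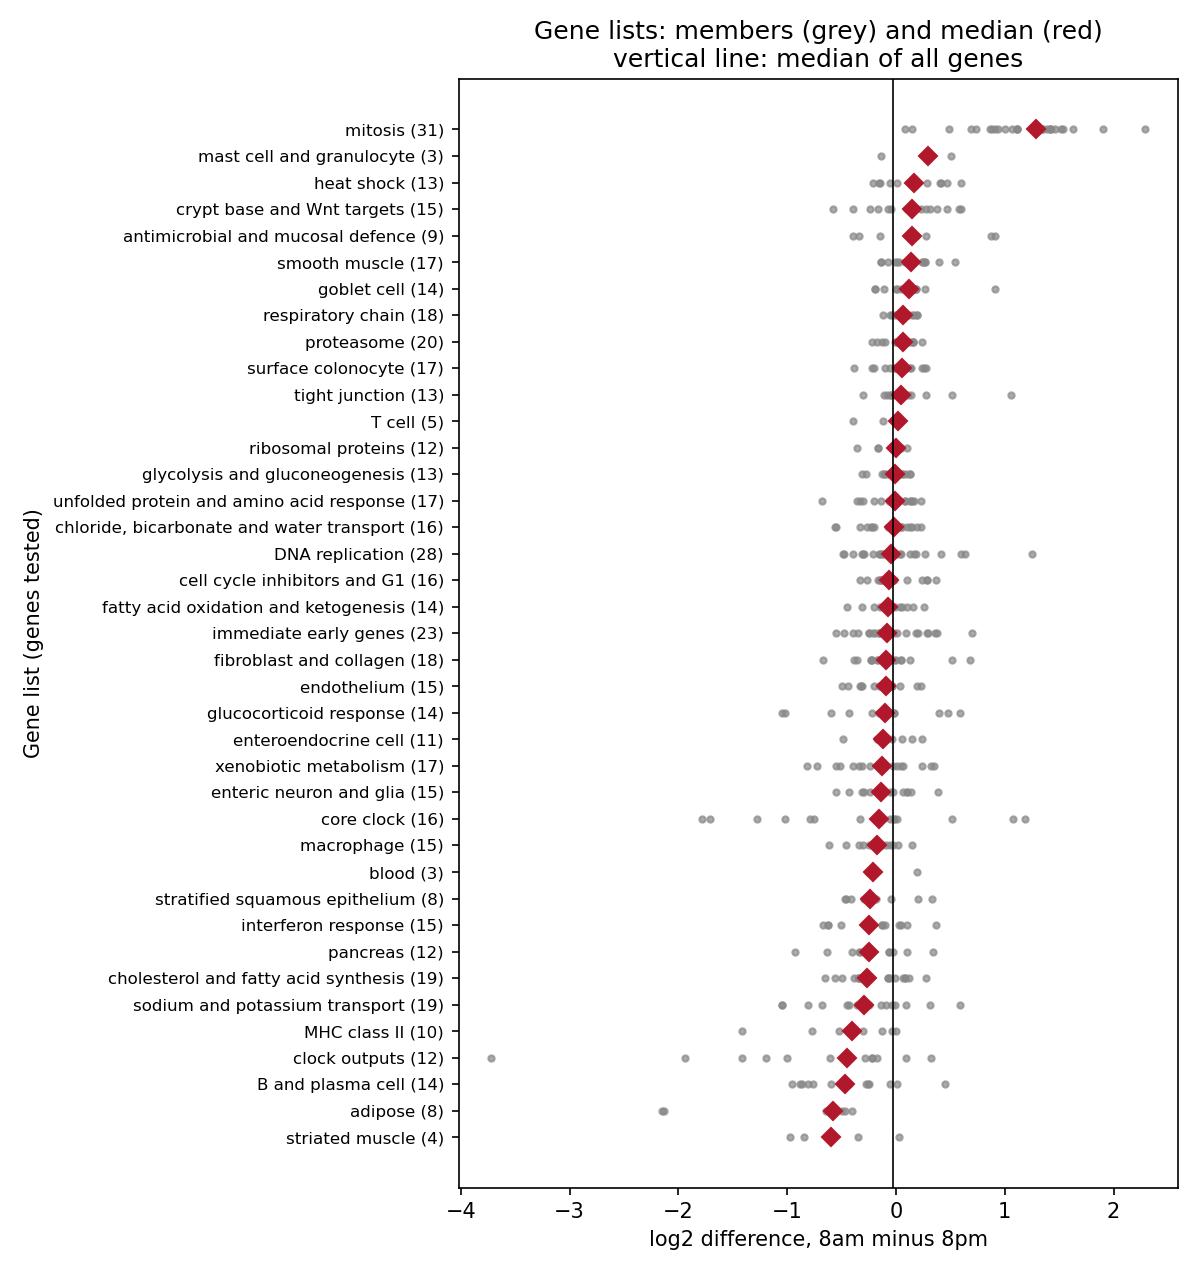
Each row is a gene list with the number of genes tested in brackets, grey points are the log2 differences of its genes, 8am minus 8pm, and the red diamond is their median. The vertical line is the median of all genes, -0.03. The mitosis list stands at 1.29 and the clock output list at -0.45. Striated muscle (-0.59, 4 genes), adipose (-0.58) and B and plasma cell (-0.47) have lower medians than clock outputs.

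The same 12 h step was then taken 4 h later, at 12pm and 12am, with no shared array. The pancreas genes differed widely between single arrays of these times. Their list mean was 9.58, 8.83 and 11.46 in 12pm a, b and c and 12.42, 14.29 and 8.90 in 12am a, b and c. The times thus overlapped, with means of 9.96 ± 1.35 at 12pm and 11.87 ± 2.74 at 12am (SD, n = 3 each). The median log2 difference was -2.02, with 0 of 12 higher at 12pm and 0 called. Members could pass the expression filter through arrays where they were abundant, so these values describe only the members that passed. The part of the pancreas genes in the values below was not tested beyond leaving arrays out. There 102 of 12870 genes passed (0.793%), 79 higher at 12pm (0.614%) and 23 lower (0.179%), and 1 of the 16 genes above, Per2, was among them, with a log2 difference of -1.21 (adjusted p = 0.02639). The other clock genes took different values. Dbp was at 1541, 863 and 725 at 12pm and at 935, 729 and 611 at 12am, a difference of 0.40 where it was -3.72 between 8am and 8pm. Nr1d2 differed by 0.70, Tef by -0.52 and Usp2 by -0.74. Cry1 and Nr1d1, which did not pass between 8am and 8pm, both passed here, with Cry1 lower at 12pm by a log2 difference of -1.58 ± 0.31 (adjusted p = 0.03058) and Nr1d1 higher by 2.13 ± 0.32 (adjusted p = 0.01359). Without 12pm c, 12am a and 12am b, where 1 array is left at 12am and is assumed to vary like the other groups, 63 genes passed, 13 of them among the 102. The log2 differences were then -1.50 for Per2, -1.31 for Cry1 and 2.06 for Nr1d1, and none of the 3 passed (adjusted p = 0.06692, 0.1712 and 0.08718).

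The test of whether the 2 steps differ, (8am - 8pm) - (12pm - 12am), passed for 0 genes in limma. The smallest adjusted p was 0.08667, for Nr1d2, followed by 0.119 for Dbp, and 1144 genes (8.89%) had an unadjusted p under 0.05. With array quality weights 18 genes passed (0.14%), 4 positive and 14 negative. Without the 3 arrays highest in pancreas genes 6 passed, all negative. The like difference from 4pm and 4am, over all 18 arrays, passed for 12 genes (0.0932%), among them Dbp, Tef, Nr1d2 and Arntl. Without the 4 arrays of high Gapdh ratio at those times 3 of the 12 passed, Dbp, Tef and Nr1d2. For the mitosis list the 12pm against 12am median was 0.29, with 25 of 31 higher at 12pm and 1 called. The difference of differences was positive for 31 of 31, with an unadjusted p under 0.05 for 16 of them and an adjusted p under 0.05 for 0. This count reuses the 8am minus 8pm values, in which all 31 were higher, and is not a separate result. The shares of all genes with a positive value or a higher mean at 12pm were not taken. Without the same 3 arrays the list's 12pm against 12am median was 0.52, and the difference of differences was positive for 29 of 31, with an unadjusted p under 0.05 for 10. The list's mean log2 signal per time was 9.76 ± 0.36 at 8am, 9.11 ± 0.32 at 12pm, 8.59 ± 0.12 at 8pm and 8.82 ± 0.03 at 12am (SD, n = 3 each).

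**Figure D5:**
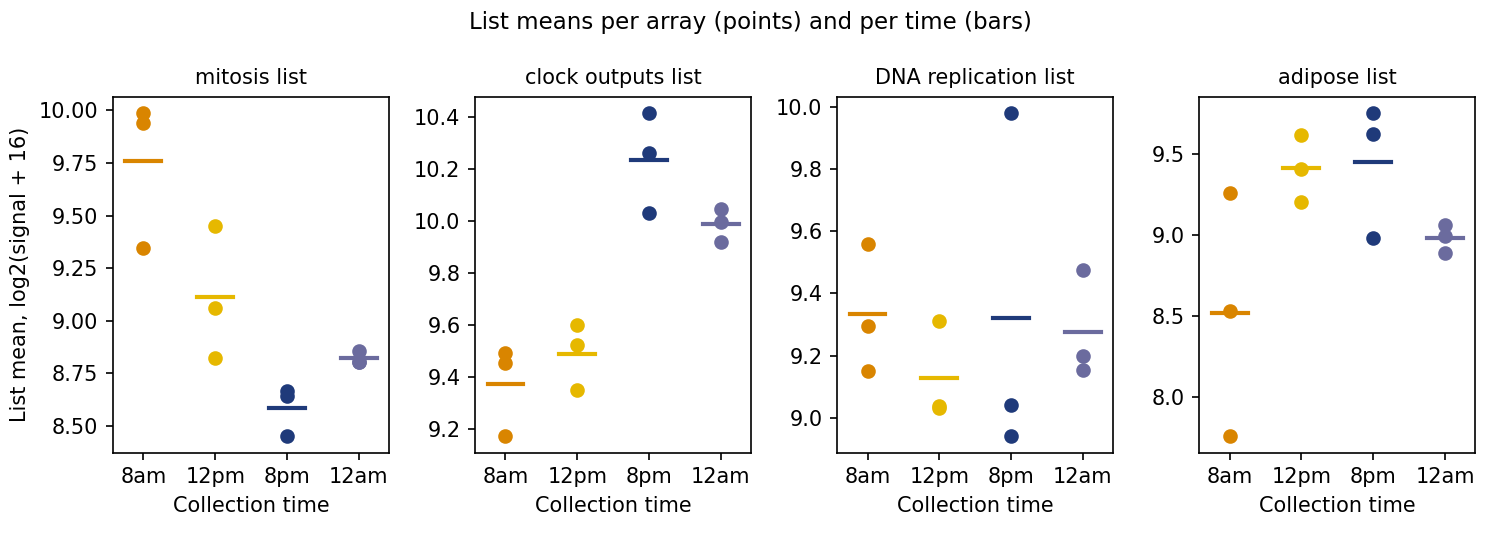
Points are the mean log2(signal + 16) of a list in single arrays and bars the mean of 3 arrays at 8am, 12pm, 8pm and 12am. The mitosis list is highest at 8am and lowest at 8pm, clock outputs are higher at 8pm and 12am, 1 array of 8pm stands apart in the DNA replication list, and the adipose list spreads widely at 8am.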

How the data were processed

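RNA of distal colon was hybridised to 18 one-colour Affymetrix arrays, 3 at each of 6 times. The authors deposited 1 table of signal intensity per probe set on a linear scale, made with GCOS per the submitters' processing notes. The version, background settings and detection calls are not given in the sources used here. The deposited intensities have a mean of 500 in each array after trimming 2% at each end, which was computed from the values, and no further scaling was applied in the main analysis.

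Of 45101 probe sets, 64 are controls and were left out. GEO's platform annotation gave 1 symbol to 34945, more than 1 to 932 and had no entry for 9160. Genes were represented by the probe set with the highest mean, and those under the 40th percentile of mean log2(signal + 16), 7.098, were left out, which left 12870 genes. The filter mean was not limited to 8am and 8pm, so a gene low at both times could pass through other arrays. limma 3.58.1 (R 4.3.3) was fitted with group means to the 12 arrays of 8am, 12pm, 8pm and 12am, with eBayes and an intensity trend, and p-values were adjusted by Benjamini-Hochberg over all genes. Precision is limited by having 3 arrays a time, and no depth is known behind a single signal. With 3 arrays against 3, an exact permutation test of a single gene cannot go below p = 0.1.

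Named genes were up to 12 per direction with the largest difference among those past the threshold, filled up by the lowest unadjusted p among genes whose arrays do not overlap, all tested members of the core clock, clock output and mitosis lists, 2 to 4 members with the lowest unadjusted p of other lists, and up to 6 per direction past the threshold in the difference from 12pm and 12am; clone names were counted only. Other genes were named after their values were seen. The comparison, the 39 gene lists and the tests were chosen with earlier results of these data known. Lists are described by counts and medians, with no test. The 8am against 8pm test was run on simulated data with 12870 genes: of 100 genes given a log2 difference of 1 it called 62%, of those given 2 it called 100%, and of 12670 left alone it called 9. Far more genes were called there than the 16 of the real data, which loosens the Benjamini-Hochberg cut. Noise was drawn for each gene by itself, without shifts shared by a whole array. These shares therefore do not give the power of the real test. Alternatives covered the arrays in the fit, array weights, pseudocount, scaling, filter, probe set rule, trend, robust fit, replicate block and each array left out; leaving out the 3 arrays highest in pancreas genes was added after the data were seen. Promoters came from RefSeq on GRCm38.p6 by symbol; the lists' genes not found there were not analysed for motifs here. The main fit did not pair arrays by replicate letter. Same-letter arrays of 8am and 8pm correlated at -0.0441 to 0.185 in their deviations from the group means, and arrays of other letters at -0.168 to 0.174. So few correlations cannot exclude a batch shared by a letter, and the count with the letter as a block is given below.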

Additional observations from a re-analysis of the deposited data

Results flagged for a closer look

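Differences between times that themselves changed with the clock hour were flagged where a test of the difference passed. The values below are (8am - 8pm) - (4pm - 4am) on the log2 scale, from limma over all 18 arrays, in an analysis added after the data were seen. Of 12870 genes 12 passed (0.0932%), 2 positive and 10 negative. Of the 12, 1 is listed under a clone name, with the remaining 11 as follows. The negative ones were Dbp at -7.45 (adjusted p = 3.526e-05), Tef at -4.05 (0.002955), Ciart at -3.86 (0.02699), Nr1d2 at -3.29 (0.006294) and Tspan4 at -2.66 (0.03616). They also included Csrnp1 at -2.41 and Slc36a1 at -2.31 (0.008796 each), Per3 at -1.88 (0.01637) and Ephx1 at -1.75 (0.01063). The positive ones were Arntl at 2.48 (0.008796) and Cldn8 at 2.53 (0.02699). In all 12 the 4pm minus 4am step had the opposite sign to the 8am minus 8pm step and so added to the value. Dbp was at -3.72 for 8am minus 8pm and at 3.73 for 4pm minus 4am. Csrnp1 was at -0.35 ± 0.26 (SE) and at 2.06, so most of its value came from 4pm and 4am. Of the 6 arrays at 4pm and 4am, 4 had high Gapdh ratios of 3′ to 5′ signal. Without those 4, where 1 array is left at each of 4pm and 4am and is assumed to vary like the other groups, Dbp (-7.20, adjusted p = 0.02177), Tef (-2.70, 0.02792) and Nr1d2 (-3.73, 0.02177) passed. The other named genes did not, with values of -3.99 for Ciart, 2.67 for Arntl (adjusted p = 0.05706), -2.45 for Tspan4, -2.62 for Csrnp1, -1.97 for Slc36a1, -1.46 for Per3, -1.44 for Ephx1 and 1.98 for Cldn8, in a fit with fewer arrays. The part of RNA quality in these calls was not tested.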

How the results depend on the processing

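The count of genes between 8am and 8pm, 16, was 1 with 18 arrays, 24 with 6 arrays, 205 with array weights, 30 with a pseudocount of 64, 2 with quantile normalization, 4 with median centring, 8 with no filter, 30 with a 60th percentile filter, 9 with every probe set, 11 with no intensity trend, 28 with a robust fit and 28 without the 3 arrays highest in pancreas genes. With the replicate letter as a block it was 3 (Tef, Dbp and Usp2, all lower). Leaving out single arrays gave 1 to 40 calls: 4 without 8am a, 37 without 8am b, 3 without 8am c, 4 without 12pm a, 25 without 12pm b, 27 without 12pm c, 1 without 8pm a or 8pm b, 24 without 8pm c, 40 without 12am a and 10 without 12am c. The causes were not tested. The difference from 12pm and 12am, 0 genes, was 18 with weights, 1 with median centring, 6 without the 3 arrays highest in pancreas genes and 0 to 5 without single arrays. Median differences ranged over left-out arrays from -0.64 to -0.23 for clock outputs and from -0.33 to -0.13 for the core clock. Genes near 0 changed sign: with array weights Nr1d1 was 0.22 and Cry1 -0.25, with median centring Csnk1d was 0.037 and Rora 0.035, and with means of probe sets Csnk1d was 0.12, Pttg1 -0.0066 and Dtx4 -0.053. Over left-out arrays Nr1d1 ranged from -0.69 to 0.13, Cry1 from -0.24 to 0.39, Csnk1d from -0.080 to 0.073, Rora from -0.10 to 0.066, Csnk1e from -0.25 to 0.074 and Bhlhe40 from -0.17 to 0.040. No detection call or background is given beside the signals, which limits what low values such as those of Psrc1 and Bub1b at 8pm can show.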

Other observations

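Single arrays differed in how near they lay to the opposite time in clock genes. The like counts over all genes without overlap were not taken, so the values below do not set clock genes apart from other genes. Of 14 core clock and clock output genes whose 8am and 8pm arrays did not overlap, the 8am array nearest to 8pm was a in 4, b in 3 and c in 7. The 8pm array nearest to 8am was a in 2, b in 1 and c in 11, and c was nearest at both times in 6. Dbp, at 588 in 8am c and at 1568 in 8pm c, is among these 6.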
